A study of Saccharomyces cerevisiae with 14 samples.

Results

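Budding yeast cells of mating type a transcribe a small set of genes that cells of mating type alpha keep silent. Measured here were 7 of these a-specific genes on Affymetrix Yeast 2.0 arrays: MFA1 (YDR461W), MFA2 (YNL145W), STE6 (YKL209C), STE2 (YFL026W), BAR1 (YIL015W), AGA2 (YGL032C) and ASG7 (YJL170C). They were taken by name from the arrays' annotation, out of 5449 Saccharomyces cerevisiae genes with a probe set. Each was read by a single probe set, each lies on a different chromosome, and 7 of 7 passed the filter on low values that left 5415 genes for testing. The study asked which effects of altering JHD2, the gene of a histone demethylase, go together with methylation of lysine 4 of histone H3, the mark that the SET1 methyltransferase lays down and Jhd2 removes. Total RNA came from growing cultures kept at 30 °C and collected at an OD600 of 0.6 to 0.7. The 14 arrays fall into 3 experiments, and each of these includes a wild type.

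The wild types of all 3 experiments carry one labelled genotype, with the alleles his3∆1, le2∆0, lys2∆0 and ura3∆0 and with TRP+, Met15+ and ADE+. The SET1 experiment set its wild type (n = 2) against a set1 deletion (n = 2) made with set1::KanMx in cells with his3-1, leu2-0, met15-0 and ura3-0. In the JHD2 experiment the wild type (n = 3) was compared with a jhd2 deletion (n = 3), which has jhd2::KanMX and the same auxotrophic alleles as the wild type. The overexpression experiment compared a wild type (n = 2) with a strain (n = 2) that is deleted for the chromosomal gene, (jhd2∆::KanMx), and overexpresses JHD2, with his3-1, leu2-0, lys2-0 and ura3-0. The labels call the replicates biological. They give no mating type for any strain, no growth medium and no promoter for the overexpressed JHD2.

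The deposited values are MAS5 signals, a linear brightness per probe set. An array's background was taken as the 95th percentile of its 1746 fission yeast probe sets, which lay between 7.28 and 16.7. The median signal of the tested genes was 538.1 to 664.3, and 98.0% to 99.9% of them lay above background. The targeted genes followed the labels. SET1 read 1.13 and 3.31 in the set1 deletion against 395.4 to 701.2 elsewhere, and JHD2 read 0.230 to 3.41 in the jhd2 deletion, 118.8 to 226.3 in the wild types and the set1 deletion, and 5207 and 6237 on the overexpression arrays. LEU2 read 5.27 to 46.2 in the SET1 and JHD2 experiments and 6823 to 7294 in the overexpression experiment, wild type included, so the 3 wild types with the same label were not alike.

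In alpha cells the repressor alpha2 acts at a-specific genes together with Mcm1, and recruits the corepressor of Tup1 and Cyc8. In a cells, which have no alpha2, Mcm1 activates the same genes. Their products make and export the pheromone a-factor, sense and degrade the alpha-factor of the partner, and hold mating cells together. The mating type itself is set at the MAT locus, and silent copies of its genes lie at HML and HMR.

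The mating type of each culture was read from genes other than these 7. HMRA1, the a1 gene of the silent HMR locus, whose sequence MAT also carries in a cells, read 896.0 and 548.1 in the wild type and 717.8 and 794.1 in the deletion of the SET1 experiment. On the 10 other arrays it lay between 0.237 and 8.16, above background on 0 of 10. HMLALPHA1, read by a probe set that may also match the MAT copy of alpha1, ran the other way, at 7.98 to 14.8 on those 4 arrays and 829.0 to 1110 on the 10 others. The 4 arrays of the SET1 experiment are therefore called a-type and the other 10 alpha-type. Experiment and mating type cannot be told apart, since no experiment holds both. The division was first drawn from genes of this kind in these data, so the height of the a-specific genes on the a-type arrays describes the cultures and does not test them independently. Of the 8 haploid markers (GPA1, STE4, STE18, STE5, FUS3, FAR1, RME1 and AXL1), 8 were above background on every array, as were 98.0% to 99.9% of tested genes. The 5 meiotic genes IME1, IME2, SPO11, NDT80 and SPS1 were also above background on 4 of 4 a-type and 10 of 10 alpha-type arrays. These counts therefore do not set haploid apart from diploid cultures. The summed signal of the 5 meiotic genes was 542.2 to 592.6 on a-type and 340.8 to 568.2 on alpha-type arrays.

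The 7 genes were between 10.8 and 82.3 times higher on the a-type than on the alpha-type arrays, and none of them overlapped between the types. Such a separation in that direction was seen in 1.59% of all tested genes. The 7 held the ranks 2 to 6, 8 and 9 among the 5415 genes ordered by the difference between the types, behind HMRA1. At rank 7 was LYS2, for which the wild types are labelled mutant and the set1 deletion is not. Within each experiment the changes were far smaller. In the set1 deletion, the jhd2 deletion and the JHD2 overexpression strain, 0 of the 7 passed the test in any of the 3. Of all tested genes, only 0.259%, 0.0369% and 0.517% passed it in these strains, in that order.

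**Figure D1:**
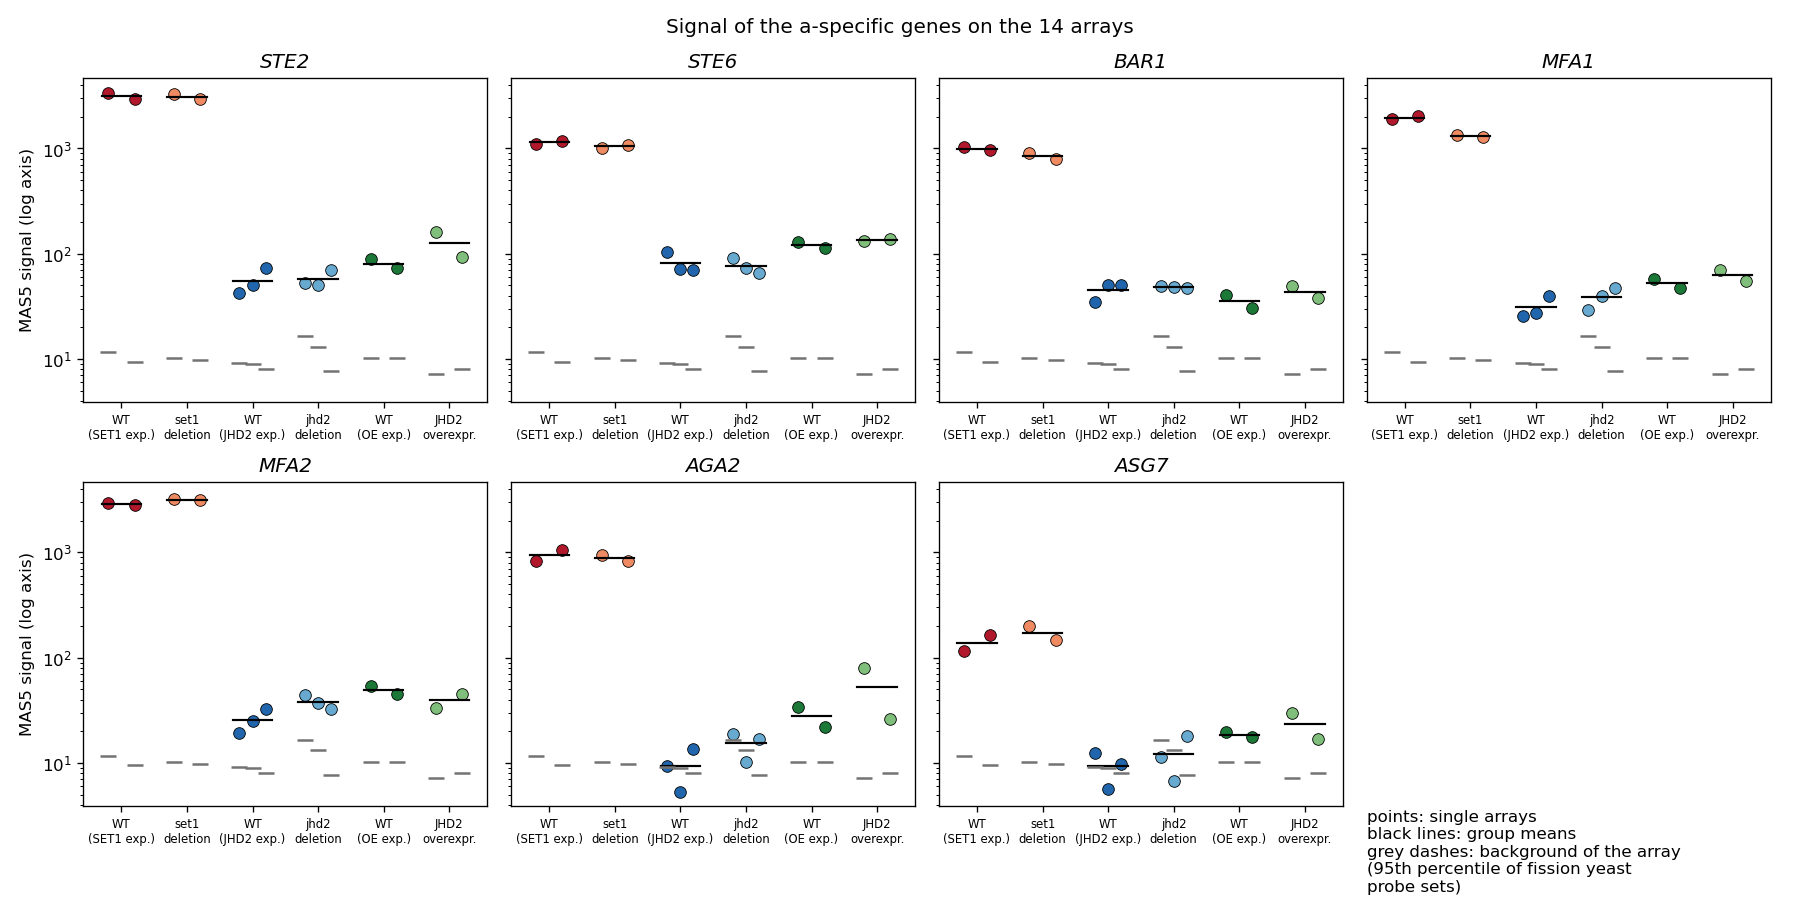
Signal of each a-specific gene on all 14 arrays, on a log axis, with 1 panel per gene and 1 column per group. Points are arrays, black lines are group means and grey dashes mark each array's background. The 4 arrays of the SET1 experiment lie above the 10 others in every panel, and AGA2 and ASG7 reach down to the background in the JHD2 experiment.

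MFA1 and MFA2 encode the precursors of a-factor, the lipid-modified peptide pheromone of a cells. MFA1 read 1892 and 2021 in the wild type of the SET1 experiment and 1352 and 1290.0 in the set1 deletion. In the JHD2 experiment it read 25.6, 27.3 and 39.8 in the wild type and 29.2, 39.7 and 47.0 in the jhd2 deletion. In the overexpression experiment it read 57.9 and 46.9 in the wild type and 70.2 and 54.8 with JHD2 overexpressed. The lowest a-type array was 18.4 times the highest alpha-type array. The set1 deletion lay below its wild type on both arrays, in a comparison where 36.5% of all tested genes did not overlap. Ordered by group mean, the SET1-experiment wild type (1957 ± 91.1, SD, n = 2) stood above the set1 deletion (1321 ± 43.8, n = 2), followed by JHD2 overexpression (62.5 ± 10.8, n = 2), its wild type (52.4 ± 7.75, n = 2), the jhd2 deletion (38.6 ± 8.98, n = 3) and the JHD2-experiment wild type (30.9 ± 7.78, n = 3). Neighbours among the 4 alpha-type groups overlapped, and the others did not.

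MFA2 was the member with the largest difference between the types. It read 2934 and 2797 in the SET1-experiment wild type and 3214 and 3122 in the set1 deletion. The JHD2-experiment wild type read 19.2, 24.9 and 32.6 and the jhd2 deletion 43.8, 37.2 and 32.8. The overexpression experiment gave 53.9 and 44.9 in the wild type and 33.4 and 45.2 in the altered strain. The lowest a-type array was 51.9 times the highest alpha-type array. Unlike MFA1, MFA2 was higher in the set1 deletion (3168 ± 64.6, n = 2) than in its wild type (2866 ± 96.9, n = 2) on both arrays. Neither change was called, and 36.5% of all tested genes did not overlap in this comparison. The wild type of the overexpression experiment (49.4 ± 6.40, n = 2), the overexpression strain (39.3 ± 8.39, n = 2) and the jhd2 deletion (37.9 ± 5.50, n = 3) followed with overlapping arrays. The JHD2-experiment wild type (25.6 ± 6.71, n = 3) came last, with all 3 arrays below the jhd2 deletion, a separation shown by 1.22% of all tested genes.

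STE6 encodes the transporter that carries a-factor out of the cell. Its signal was 1095 and 1187 in the SET1-experiment wild type and 1008 and 1087 in the set1 deletion. The JHD2 experiment gave 103.2, 71.7 and 70.9 in the wild type and 91.1, 73.3 and 66.1 in the deletion, and the overexpression experiment gave 130.0 and 113.7 in the wild type and 131.0 and 137.4 in the altered strain. With the lowest a-type array 7.34 times the highest alpha-type array, the gap between the types was narrower for STE6 than for the pheromone genes. The 4 arrays of the overexpression experiment lay above the 6 of the JHD2 experiment. The share of all tested genes separated in this way was not counted. Between the wild types of these experiments alone, 31.7% of all tested genes lay higher without overlap. Group means ran from 1141 ± 64.7 (n = 2) in the SET1-experiment wild type and 1047 ± 55.4 (n = 2) in the set1 deletion to 134.2 ± 4.55 (n = 2) with JHD2 overexpressed, 121.9 ± 11.5 (n = 2) in its wild type, 81.9 ± 18.4 (n = 3) in the JHD2-experiment wild type and 76.8 ± 12.9 (n = 3) in the jhd2 deletion. Within each of these 3 experiments the 2 means differed by less than the sum of their SDs.

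STE2 encodes the receptor for alpha-factor. It read 3355 and 2944 in the SET1-experiment wild type and 3262 and 2939 in the set1 deletion. In the JHD2 experiment it read 42.0, 50.9 and 73.6 in the wild type and 52.8, 50.4 and 70.6 in the deletion. The overexpression experiment gave 89.1 and 72.5 in the wild type and 161.9 and 93.1 in the altered strain. The a-type arrays differed among themselves by at most 1.14-fold, whereas the alpha-type arrays spanned 3.85-fold, with JHD2 overexpression replicate 1 at the top. By group mean the order was the SET1-experiment wild type (3149 ± 290.1, n = 2), the set1 deletion (3101 ± 228.6, n = 2), JHD2 overexpression (127.5 ± 48.6, n = 2), its wild type (80.8 ± 11.7, n = 2), the jhd2 deletion (58.0 ± 11.0, n = 3) and the JHD2-experiment wild type (55.5 ± 16.3, n = 3). The first pair and the last pair overlapped, and the overexpression strain lay above its wild type by less than the sum of the 2 SDs.

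BAR1 encodes a secreted protease that degrades alpha-factor. It read 1029 and 965.8 in the SET1-experiment wild type and 898.7 and 793.5 in the set1 deletion. On the alpha-type arrays it read 35.2, 50.4 and 50.2 in the JHD2-experiment wild type and 49.8, 48.8 and 47.8 in the jhd2 deletion. The overexpression experiment gave 40.7 and 30.3 in the wild type and 49.9 and 37.6 in the altered strain. BAR1 had the narrowest range of the 7 on the alpha-type arrays, 1.66-fold, and its 4 alpha-type groups, with means of 35.5 ± 7.33 (n = 2) to 48.8 ± 1.03 (n = 3), overlapped from each to the next in order. The set1 deletion (846.1 ± 74.4, n = 2) lay below its wild type (997.4 ± 44.7, n = 2) on both arrays, where 36.5% of all tested genes did not overlap.

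AGA2 encodes the binding subunit of a-agglutinin, which is anchored to the a cell's wall by Aga1 and adheres to Sag1 of alpha cells. It read 830.9 and 1047 in the SET1-experiment wild type and 935.5 and 836.7 in the set1 deletion. The JHD2-experiment wild type read 9.28, 5.36 and 13.7 and the jhd2 deletion 19.0, 10.2 and 17.0. The overexpression experiment gave 33.9 and 22.0 in the wild type and 79.3 and 26.4 in the altered strain. AGA2 had the widest alpha-type range of the 7, 14.8-fold, from replicate 2 of the JHD2-experiment wild type to replicate 1 of the overexpression strain, and it was above background on 8 of those 10 arrays. The 2 a-type groups overlapped (939.1 ± 153.0 and 886.1 ± 69.8, n = 2 each), as did the overexpression strain (52.9 ± 37.4, n = 2) with its wild type (28.0 ± 8.42, n = 2) and the jhd2 deletion (15.4 ± 4.60, n = 3) with its own (9.43 ± 4.15, n = 3).

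ASG7 encodes a protein known for damping the signal of the pheromone pathway's G protein once a and alpha cells have fused. It read 116.0 and 162.5 in the SET1-experiment wild type and 199.3 and 146.2 in the set1 deletion. The JHD2 experiment gave 12.3, 5.71 and 9.81 in the wild type and 11.4, 6.78 and 18.0 in the deletion, and the overexpression experiment 19.5 and 17.6 in the wild type and 30.1 and 16.8 in the altered strain. The types lay closer together than for any other of the 7, with the lowest a-type array 3.86 times the highest alpha-type array. Of the alpha-type arrays, 7 of 10 were above background. Group means were 172.7 ± 37.6 (n = 2) in the set1 deletion, 139.3 ± 32.9 (n = 2) in its wild type, 23.5 ± 9.36 (n = 2) with JHD2 overexpressed, 18.5 ± 1.36 (n = 2) in its wild type, 12.1 ± 5.63 (n = 3) in the jhd2 deletion and 9.29 ± 3.35 (n = 3) in its wild type, and each group overlapped the next in this order except between the types.

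Residual signal on the alpha-type arrays was thus above background for MFA1, MFA2, STE6, STE2 and BAR1 on 10 of 10 arrays. The same held for 98.0% to 99.9% of all tested genes on each array, so the count is not particular to these genes. The 5 alpha-specific genes were likewise above background on 4 of 4 a-type arrays. The alpha-type median was 8.90% of the a-type median for STE6 and 9.45% for ASG7, but 1.17% for MFA2 and 2.03% for AGA2. RNA from a whole culture sums any signal of a few a cells and of a little RNA in every alpha cell. Their shares were not tested. HMRA1 was above background on 0 of the same 10 arrays, and its alpha-type median was 0.233% of its a-type median. Whether a small share of a cells would lift it above background was not tested.

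The difference between the types was tested as the mean of the 2 SET1-experiment groups against the mean of the other 4 on the log2 scale, with limma over all 5415 genes and Benjamini-Hochberg adjustment (called at an adjusted p under 0.05). In this comparison 21.1% of all tested genes were called, 9.34% as higher, and 7 of the 7 members were called as higher. The split of all called genes moved with the scaling, from 506 higher and 635 lower to 547 and 477 after quantile normalization and 812 and 327 after median centring, with the 7 members higher under each. Of all tested genes 1.59% lay higher on every a-type array than on any alpha-type array, as did 7 of the 7. The log2 differences were 6.36 ± 0.15 (SE) for MFA2, 5.50 ± 0.31 for AGA2, 5.39 ± 0.18 for STE2, 5.19 ± 0.16 for MFA1, 4.43 ± 0.14 for BAR1, 3.45 ± 0.13 for STE6 and 3.43 ± 0.30 for ASG7. Their limma adjusted p ran from 1.6e-11 for MFA2 to 1.9e-05 for ASG7. Since the types were first drawn from genes of this kind in these data, these calls and p-values are a description and not independent support. With log2(signal + 32) the differences ran from 1.97 for ASG7 to 5.46 for MFA2, and 7 of 7 stayed called. The median of the 7 was 5.19, against -0.03 over all tested genes and 0.05 over the fission yeast probe sets.

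The same 7 genes differed between the wild types alone. Between the SET1-experiment and the JHD2-experiment wild type, only 0.388% of tested genes were called, 21 in all, and these included 7 of the 7 members, 5 of the 5 alpha-specific genes, HMRA1, HMLALPHA1 and HMRA2. The members' log2 differences ranged from 3.82 ± 0.20 for STE6 to 6.84 ± 0.24 for MFA2. Against the wild type of the overexpression experiment, where 8.11% of tested genes were called (155 higher and 284 lower, but 355 and 148 after median centring), 7 of 7 members were called again, from 2.89 ± 0.50 for ASG7 to 5.86 ± 0.26 for MFA2. These comparisons share the SET1-experiment wild type, so they are not independent of each other or of the comparison of all 6 groups. They also follow the types drawn from genes of this kind, so they describe the cultures.

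The genes of the partner type ran opposite. MF(ALPHA)1 and MF(ALPHA)2, which encode alpha-factor, STE3, the receptor for a-factor, SAG1, the alpha-agglutinin, and AFB1, a barrier to a-factor, were called as lower on the a-type arrays, 5 of 5, with log2 differences from -3.41 ± 0.07 for AFB1 to -8.31 ± 0.08 for MF(ALPHA)1. The summed signal of the 7 a-specific genes was 10214 to 11252 on a-type and 236.4 to 555.7 on alpha-type arrays, and that of the 5 alpha-specific genes was 532.9 to 704.5 and 15423 to 23275. HMRA1 was at least 76.8-fold higher on the a-type arrays, taking its level on the alpha-type arrays as background (mean signals of 739.0 and 2.45). HMLALPHA1 was lower by a log2 difference of -6.46 ± 0.10 and HMRA2, whose probe set may match other copies of the locus, by -1.53 ± 0.11. The types were named from HMRA1 and HMLALPHA1, so the differences of these genes describe the division and do not test it.

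**Figure D2:**
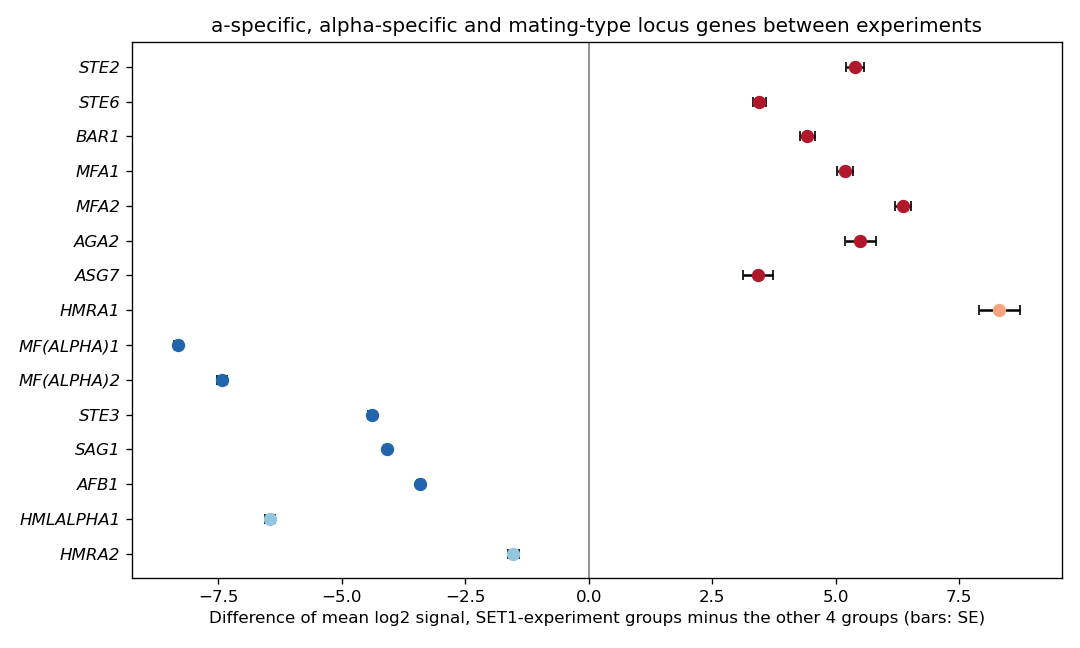
Log2 difference between the SET1-experiment groups and the other 4 groups, with bars of 1 SE, for the a-specific genes (red), the alpha-specific genes (dark blue) and genes of the silent mating loci (pale). The a-specific genes lie between 3.43 and 6.36 and the alpha-specific genes between -8.31 and -3.41.

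The listed genes of haploid signalling, of the response to pheromone and of a-factor processing differed by less. The median log2 difference was -0.16 over the signalling genes, -0.29 over the pheromone-induced genes and -0.22 over the genes of a-factor processing, and 11.7% of all tested genes were called as lower. Of 16 genes listed for haploid signalling, 0 were called as higher and 5 as lower on the a-type arrays. Lower were SST2 (-0.91 ± 0.12), which ends the G-protein signal, FAR1 (-0.60 ± 0.17), which arrests the cell cycle, and RME1 (-0.42 ± 0.09), a repressor of meiosis. So were GPA1 (-0.37 ± 0.11), the G-protein alpha subunit, and STE7 (-0.35 ± 0.10), a kinase of the cascade. Of 16 genes induced by pheromone, 1 was called as higher, PRM4 (0.74 ± 0.17), and 4 as lower: AGA1 (-1.22 ± 0.12), the wall anchor of Aga2, FUS1 (-0.83 ± 0.09) and PRM1 (-0.75 ± 0.18), which act in cell fusion, and KAR4 (-0.51 ± 0.14), a transcription factor of nuclear fusion. AGA1 thus differed in the direction opposite to AGA2. Of 7 genes that process a-factor, STE24 (0.45 ± 0.10), a protease of the precursor, was called as higher, and RAM1 (-0.40 ± 0.11), a subunit of the farnesyltransferase, and STE23 (-0.43 ± 0.10), a protease, as lower. The calls of AGA1, FUS1, SST2 and RME1 held with any 1 array left out. Those of GPA1, STE7, KAR4, RAM1, FAR1, PRM4, PRM1, STE23 and STE24 did not: each was lost without at least 1 of the 4 a-type arrays, and GPA1, STE7, KAR4, RAM1 and FAR1 also without at least 1 array of the overexpression experiment and under quantile normalization. The 3 remaining regulators with a probe set, MCM1, TUP1 and CYC8, were not called.

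The wild types of the JHD2 and the overexpression experiment are both alpha-type and carry the same labelled genotype. In limma's comparison of the overexpression-experiment wild type with that of the JHD2 experiment, 16.3% of tested genes were called, 10.7% as higher, and 2 of 7 members were called as higher, MFA2 (0.98 ± 0.24, adjusted p = 0.0164) and AGA2 (1.64 ± 0.48, adjusted p = 0.0383). MFA1 (0.78 ± 0.25), STE6 (0.59 ± 0.20), ASG7 (1.07 ± 0.46), STE2 (0.57 ± 0.27) and BAR1 (-0.35 ± 0.22) were not called. The median of the 7 was 0.78 against 0.07 over all tested genes, and 0.024 after quantile normalization. Here too the split moved with the scaling, from 582 genes higher and 298 lower to 403 and 464 after quantile normalization and 436 and 558 after median centring. Of the 7, 5 lay higher on every array of the overexpression-experiment wild type, as did 31.7% of all tested genes. In the same comparison STE3 (-0.52 ± 0.11) and MF(ALPHA)2 (-0.89 ± 0.16) were called as lower, STE3 not without replicate 2 of the overexpression-experiment wild type. HMRA1 was called as higher (adjusted p = 0.0316) but lay below background on all 5 arrays, so no fold is given.

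The count of 2 rested on single arrays and on the processing. It was 0 without replicate 1 or replicate 2 of the overexpression-experiment wild type. It was 1 without replicate 2 of the JHD2-experiment wild type or without either replicate of the set1 deletion, and 4 without replicate 3 of the jhd2 deletion. With the replicate number as a block it was 6. With log2(signal + 32) it was 1, since AGA2 (0.53, limma adjusted p = 0.134) lost its call. In the JHD2-experiment wild type AGA2 read 9.28, 5.36 and 13.7 on arrays with backgrounds of 9.10, 8.96 and 8.08, so its fold there rests on values near background. After quantile normalization 1 member was called, BAR1, as lower (-1.11), with MFA2 at 0.16, MFA1 at -0.02 and STE2 at -0.09, so that the direction of MFA1 and STE2 turned.

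**Figure D3:**
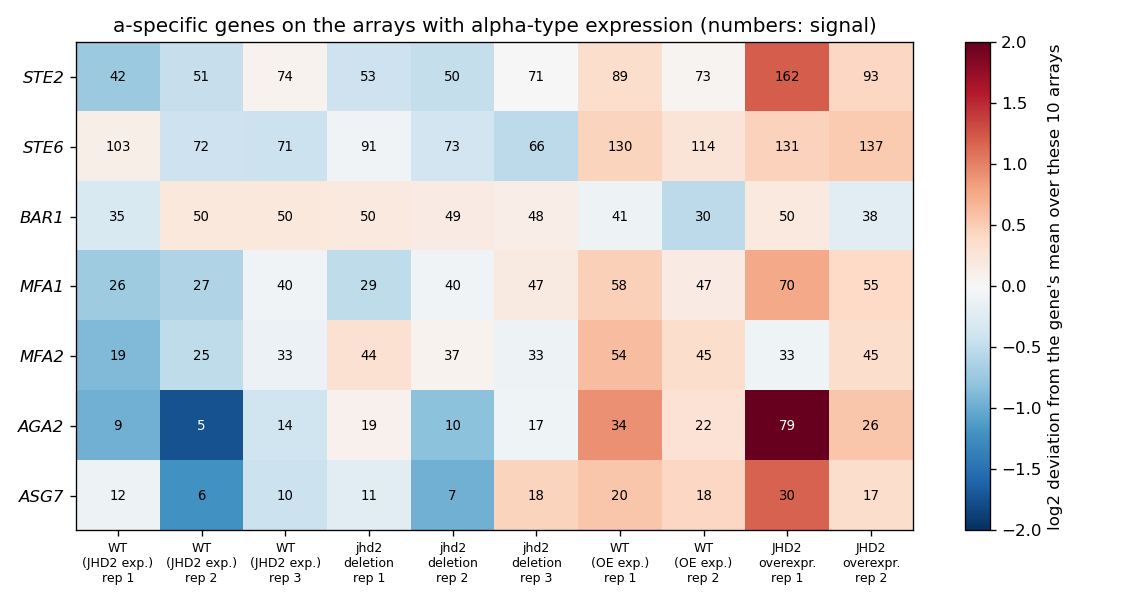
The a-specific genes on the 10 alpha-type arrays, coloured by the log2 deviation of each array from the gene's mean over these arrays, with the signal printed in each cell. Replicate 1 of the overexpression strain is highest for STE2, MFA1, AGA2 and ASG7, and replicates 1 and 2 of the JHD2-experiment wild type are low for most members.

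Among the alpha-type arrays, replicate 1 of the overexpression strain stood out. It held the highest value of 4 members, STE2, MFA1, AGA2 and ASG7, and its mean deviation over the 7 was 0.84 log2 units above the alpha-type mean. This was not particular to the members. Other listed mating genes, among them RME1, KAR5 and PRM1, were also highest on this array, while others, such as GPA1, were highest elsewhere. The share of all tested genes that were highest on it was not counted. Replicate 2 of the same strain was at 0.34, and the arrays of its wild type at 0.47 and 0.14. The lowest means were -0.68 and -0.51, on replicates 2 and 1 of the JHD2-experiment wild type. BAR1 did not follow this order and had its highest value on replicate 2 of that same wild type. The log2 ratio of 3′ to 5′ signal over 8 control transcripts, a measure of RNA quality and labelling, was 1.02 and 1.46 on the overexpression arrays and 0.69 and 0.33 on their wild type. Its part in these levels was not tested.

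In the set1 deletion, where the a-specific genes are at their high level, 0 of the 7 were called by limma, against 0.259% of tested genes. The deletion also differs from its wild type in labelled auxotrophic alleles, and these cannot be told apart from loss of SET1. MET17 (MET15) read 3514 to 3528 in the wild type and as low as 1.58 in the deletion. LYS2 read 2.94 to 10.0 in the wild type and up to 1567 in the deletion. None of the 7 had an unadjusted p under 0.05, where 451 of the 5415 tested genes did. The log2 changes were -0.02 ± 0.30 (SE, n = 2 against 2; 95% interval -0.68 to 0.63) for STE2, -0.12 ± 0.22 (-0.60 to 0.35) for STE6, -0.24 ± 0.24 (-0.77 to 0.29) for BAR1, 0.14 ± 0.26 (-0.42 to 0.71) for MFA2, -0.08 ± 0.53 (-1.23 to 1.08) for AGA2 and 0.31 ± 0.50 (-0.78 to 1.40) for ASG7. MFA1 had the largest change, -0.57 ± 0.27 (-1.16 to 0.03, adjusted p = 0.625), and was lower in both same-numbered pairs, by -0.49 and -0.65. The groups did not overlap for MFA1, STE6 and BAR1, which were lower, and MFA2, which was higher, a separation shown by 36.5% of all tested genes in this design of 2 against 2. The median of the 7 was -0.08, against 0.02 over all tested genes and -0.06 over the fission yeast probe sets.

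The other mating genes in the set1 deletion included 3 called ones, all alpha-specific. MF(ALPHA)1 (1.06 ± 0.13) and MF(ALPHA)2 (1.09 ± 0.17) rose from low signals of 11.8 to 19.4 in the wild type. AFB1 (-1.20 ± 0.12) fell from 334.6 and 361.4 in the wild type to 140.2 and 163.3 in the deletion. Its call held with any 1 array left out. MF(ALPHA)1 lost its call without replicate 1 of the deletion, and MF(ALPHA)2 without either replicate of the deletion or replicate 1 of the wild type. Neither was called after quantile normalization (0.69 and 0.75) or with log2(signal + 32) (0.38 and 0.48). With the experiment's own 4 arrays alone, none of the 3 was called (adjusted p of 0.681, 0.639 and, for AFB1, 0.509). Of the 16 signalling genes, 16 pheromone-induced genes, 7 genes of a-factor processing and 6 regulators with a probe set, 0 were called. The 2 with the smallest p in each list were SST2 (-0.58 ± 0.21) and DIG2 (-0.57 ± 0.22), AGA1 (-0.70 ± 0.21) and PRM4 (-0.76 ± 0.29), RAM2 (-0.21 ± 0.17) and AXL1 (0.12 ± 0.18), and HMLALPHA1 and CYC8 (-0.21 ± 0.13). Taking its level in the deletion as background, HMLALPHA1 read at least 1.46-fold less than in the wild type (mean signals of 14.7 and 8.06, adjusted p = 0.0507). It was called without the trend (adjusted p = 0.0302), without replicate 3 of the jhd2 deletion (adjusted p = 0.0320) and with the replicate number as a block (adjusted p = 0.0209). SST2 was also called with that block (adjusted p = 0.0251).

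**Figure D4:**
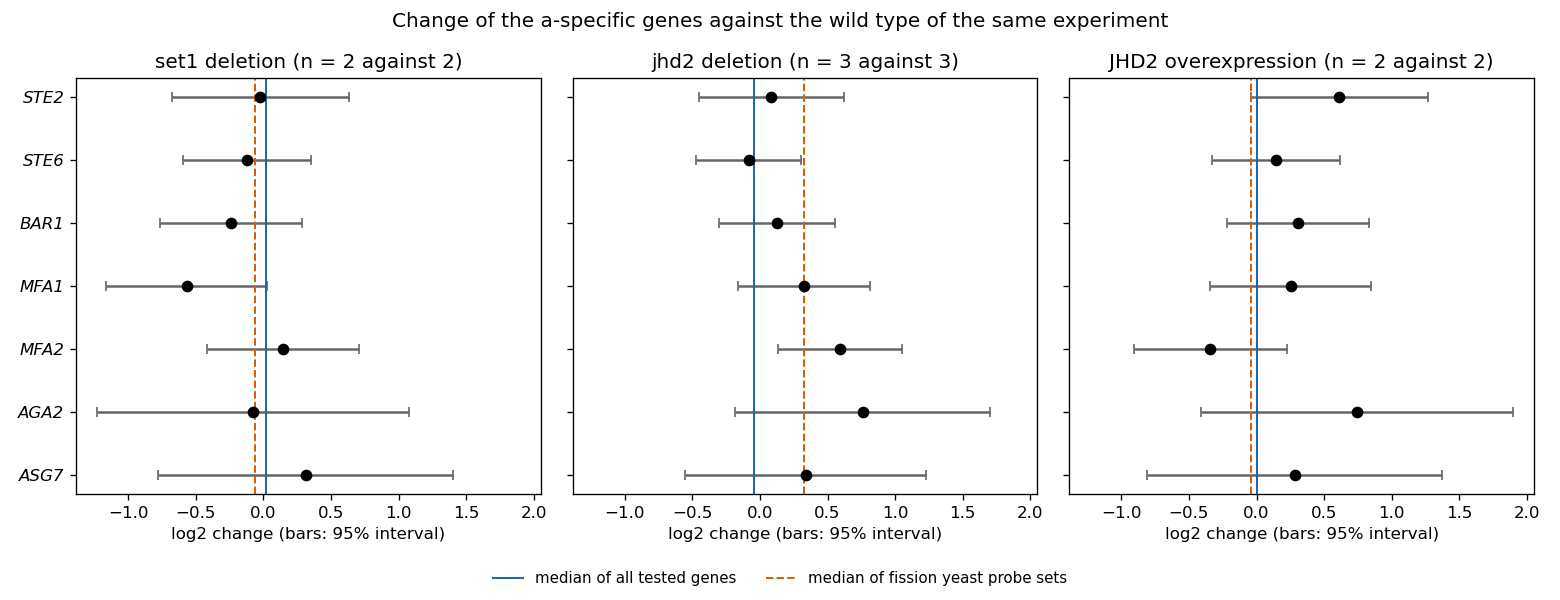
Log2 change of each a-specific gene in the 3 altered strains against the wild type of the same experiment, with 95% intervals from the fit over all arrays. Vertical lines mark the median of all tested genes and of the fission yeast probe sets, which stand apart in the jhd2 deletion, at -0.04 and 0.32.

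In the jhd2 deletion the a-specific genes are at their low, alpha-type level. Limma called 0 of the 7, and 1 had an unadjusted p under 0.05, against 0.0369% of all tested genes called (2 genes, and 4 with the replicate number as a block, which left the members at 0). An unadjusted p under 0.05 was found for 99 of the 5415 tested genes. The 1 member was MFA2, at 0.59 ± 0.21 (n = 3 against 3; 95% interval 0.13 to 1.05; unadjusted p = 0.0157, adjusted p = 1.00). MFA2 was also the 1 member whose groups did not overlap, as 1.22% of all tested genes did not in that direction. Its change by same-numbered pair was 1.19, 0.58 and 0.01, so the third pair did not move. With the third pair left out, an alternative chosen after seeing the data, MFA2 was called (0.88, adjusted p = 0.0444), as 1 of 169 genes. With log2(signal + 32), which damps low signals, it was at 0.28. The log2 ratio of 3′ to 5′ signal over the control transcripts was 1.32 in the wild type and 1.15 in the deletion of the third pair, and 0.086 to 0.54 on the other 4 arrays of this experiment. Its part in the difference between the pairs was not tested.

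The other 6 had log2 changes in the jhd2 deletion of 0.09 ± 0.25 (95% interval -0.45 to 0.62) for STE2, -0.08 ± 0.18 (-0.47 to 0.30) for STE6, 0.13 ± 0.20 (-0.30 to 0.56) for BAR1, 0.32 ± 0.22 (-0.16 to 0.81) for MFA1, 0.76 ± 0.43 (-0.18 to 1.70) for AGA2 and 0.34 ± 0.41 (-0.55 to 1.23) for ASG7. The median of the 7 was 0.32, against -0.04 over all tested genes. The fission yeast probe sets, which hold no yeast transcript of these cultures, were at a median of 0.32 there as well. Background was 16.7, 13.1 and 7.77 on the jhd2 deletion arrays and 9.10, 8.96 and 8.08 on their wild type, so the first 2 deletion arrays had a higher background and the third did not. Its part in the change of MFA2 was not tested.

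None of the other mating genes was called in the jhd2 deletion, 0 of 5 alpha-specific, 0 of 16 signalling, 0 of 16 pheromone-induced, 0 of 7 a-factor processing genes and 0 of 6 regulators, and 0 of these had an unadjusted p under 0.05. Those with the smallest p in each list were MF(ALPHA)1 (0.13 ± 0.11) and AFB1 (0.10 ± 0.10), STE50 (-0.22 ± 0.18) and GPA1 (-0.15 ± 0.15), PRM1 (0.31 ± 0.24) and FIG2 (0.27 ± 0.23), STE14 (-0.15 ± 0.19) and RAM2 (-0.06 ± 0.14), and HMRA1 (0.69 ± 0.57, below background on all 6 arrays) and HMRA2 (0.11 ± 0.15).

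With JHD2 overexpressed, limma again called 0 of the 7, with 0 at an unadjusted p under 0.05, against 0.517% of all tested genes. STE2 had the change nearest to the threshold, 0.61 ± 0.30 (n = 2 against 2; 95% interval -0.04 to 1.27; adjusted p = 0.283), and was higher on both overexpression arrays than on either wild-type array. STE6 was the other member without overlap, at 0.14 ± 0.22 (-0.33 to 0.62), and 31.1% of all tested genes lay higher in this way. BAR1 was at 0.30 ± 0.24 (-0.22 to 0.83), MFA1 at 0.25 ± 0.27 (-0.34 to 0.85), MFA2 at -0.34 ± 0.26 (-0.90 to 0.22), AGA2 at 0.74 ± 0.53 (-0.41 to 1.90) and ASG7 at 0.28 ± 0.50 (-0.81 to 1.37). Without replicate 1 of the overexpression strain, AGA2 was at -0.05 and ASG7 at -0.14. The median of the 7 was 0.28, against 0.0005 over all tested genes and -0.04 over the fission yeast probe sets.

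Other mating genes were not called in the overexpression strain either, in any of the 5 lists. Of the 16 signalling genes 4 had an unadjusted p under 0.05, of the pheromone-induced genes 1 and of the regulators 2, where 1049 of the 5415 tested genes did. The 2 with the smallest p in each list were KSS1 (-0.65 ± 0.18, adjusted p = 0.116), a kinase of the pathway, and DIG1 (-0.52 ± 0.19), an inhibitor of Ste12, KAR4 (0.64 ± 0.24) and MSG5 (0.55 ± 0.26), TUP1 (-0.40 ± 0.17) and CYC8 (-0.32 ± 0.13), STE3 (0.19 ± 0.12) and AFB1 (-0.17 ± 0.12), and RAM1 (0.34 ± 0.19) and RCE1 (0.36 ± 0.30). Of these, KSS1, DIG1, KAR4, MSG5 and TUP1 were called with the experiment's arrays alone (adjusted p of 0.0173 to 0.0342), with the replicate number as a block (0.00692 to 0.0211) and with the numbers crossed (0.00517 to 0.0180). RAM1 was called with the block (adjusted p = 0.0434) and not with the numbers crossed or the experiment alone.

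The 2 alterations of JHD2 were set against each other directly, as the change in the jhd2 deletion minus the change with JHD2 overexpressed. Limma called 0.0923% of tested genes and 0 of the 7 members, of which 1 had an unadjusted p under 0.05, as did 631 of the 5415 tested genes. The 1 member was again MFA2, at 0.93 ± 0.33 (95% interval 0.21 to 1.66; unadjusted p = 0.0160, adjusted p = 0.377), since its change was positive in the deletion and negative in the overexpression strain. STE2 was at -0.53 ± 0.39 (-1.37 to 0.32), and the other 5 lay between -0.23 for STE6 and 0.07 for MFA1. Without the third pair of the JHD2 experiment, MFA2 was called here too (1.23, adjusted p = 0.0365), whereas after quantile normalization it was at 0.24.

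The genes whose 6 group means ran most like the mean profile of the 7 were sought among 255 genes that spanned at least 2 log2 units. They were HMRA1 (Pearson r = 0.997), YNL146C-A (0.991), FRE4 (0.897), YMR315W-A (0.894) and DAL1 (0.889), over 6 groups each. The groups form 2 clusters, 2 a-type and 4 alpha-type. YNL146C-A, a gene without a standard name, read 69.4 to 117.2 on a-type and 3.05 to 18.4 on alpha-type arrays and lies 2 genes from MFA2 in the annotated gene order. FRE4, a ferric reductase gene, read 181.6 to 288.0 and 51.4 to 110.2, YMR315W-A read 14.1 to 26.1 and 3.94 to 15.7, and DAL1, the allantoinase gene, 54.0 to 131.0 and 22.7 to 54.8.

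The genes on either side of each member in the annotated gene order were also examined. Of these 14 neighbours, 11 were tested, and 2 of them were called between the types, where 21.1% of all tested genes were. YNL146W, next to MFA2, was lower on the a-type arrays (-1.18 ± 0.13), as was SET2, next to ASG7 (-0.49 ± 0.14). None of the 11 was called in the set1 deletion, the jhd2 deletion or the overexpression strain.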

How the data were processed

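Total RNA of 14 cultures was hybridised to Affymetrix Yeast 2.0 arrays. Deposited is a linear intensity for each probe set, computed by the authors with MAS5, per the submitters' processing notes. Its version and target were not given in the sources used here. On every array the trimmed mean was 500.2 to 500.3, so all had been scaled alike. Of 10928 probe sets, 5498 name 1 S. cerevisiae gene (47 genes have several, of which the brightest was used), 1746 are fission yeast, 1 names several genes and 3683 are unnamed. Genes whose mean log2 value exceeded the 95th percentile of the fission yeast means were tested. The annotation names no probe set of its own for MATALPHA1, MATALPHA2 and HMLALPHA2.

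Signals under 1 were set to 1 and put on the log2 scale. Means of 6 groups were fitted to all 14 arrays with limma 3.58.1 (R 4.3.3), with a trend of variance on intensity (4.12 prior and 8 residual degrees of freedom). Tests are two-sided, adjusted by Benjamini-Hochberg over 5415 genes within each comparison. The number of arrays limits the precision. Same-numbered arrays deviated together in the JHD2 experiment (r of 0.64, 0.62 and 0.69), which counts as pairing. They did so in the SET1 experiment (0.73, only 2 pairs) and not in the overexpression experiment (-0.14), and neither counts as pairing. The SEs, intervals and p-values printed for the jhd2 deletion come from fits that leave out the pairing of the JHD2 experiment. Alternatives were quantile normalization, median centring, no filter, log2(signal + 32), no trend, each experiment alone, replicate blocks and each array left out.

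Named besides the members are genes of 5 lists called in a comparison, or else, for the 3 altered strains, the 2 with the smallest p, and the 5 nearest patterns. The members and lists were chosen with earlier results of these data known. No sequence is shown.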

Additional observations from a re-analysis of the deposited data

How the results depend on the processing

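In the 3 comparisons of a-type with alpha-type groups, 7 of 7 members were called under every alternative run. The types were drawn from genes of this kind, so these calls describe the cultures and are not independent support. Few arrays and low alpha-type signals limit the rest. The number of all genes called moved with the setting. In the set1 deletion it was 28 with log2(signal + 32), 27 without trend, 0 with the experiment alone, 110 with the replicate block and 3 to 24 with 1 array left out. In the jhd2 deletion it was 1 after quantile normalization, median centring, without trend or with the experiment alone, 4 with the block, 169 without pair 3 and 1 to 24 with 1 array left out. In the overexpression strain it was 122 after quantile normalization (48 higher, 74 lower, against 9 and 19), 13 after median centring, 11 without trend, 955 alone, 1105 with the block, 1175 with the replicate block crossed, which was added after seeing the data, and 5 to 157. The other counts were 365 (block), 137 (without pair 3) and 17 to 224 between the SET1- and JHD2-experiment wild types, 1384 (block) and 124 to 658 between the SET1- and overexpression-experiment wild types, 2041 (block) and 257 to 1061 between the latter 2, 2311 (block), 1779 (without pair 3) and 404 to 1403 between the types, and 8 with log2(signal + 32) or without trend, 544 (block), 618 (crossed), 352 (without pair 3) and 4 to 65 for the difference of the JHD2 changes. Between the SET1- and overexpression-experiment wild types the median of all genes moved from -0.10 to 0.026 after quantile normalization and 0.082 after median centring, and between the alpha-type wild types from 0.069 to -0.051 and -0.060. In the set1 deletion 9 genes were higher and 5 lower, and 5 and 6 after quantile normalization. The cause was not tested.

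Members called were 1 (MFA2) in the jhd2 deletion and in the difference without pair 3, 1 (STE2) with the block in the overexpression strain, where numbers do not pair, and, between the alpha-type wild types, 1 after quantile normalization or with log2(signal + 32), 4 without trend or without pair 3, 6 with the block and 0 to 4 with 1 array left out. In the 3 altered strains no member was called with any 1 array left out. The block changed no other call of a member.

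Directions that turned belong to uncalled changes. After quantile normalization these were ASG7 (-0.18), MF(ALPHA)1 (-0.072) and RAM2 (0.0030) in the jhd2 deletion, MFA2 (0.17) in the overexpression strain, STE2 (-0.090) and MFA1 (-0.023) between the alpha-type wild types, and MFA1 (-0.48), AGA2 (-0.70) and ASG7 (-0.81) in the difference. Others were RAM2 (0.0084) after median centring, AGA2 (-0.24) and ASG7 (-0.035) with log2(signal + 32) in the difference, and FIG2 (-0.085), HMRA1 (0) and, in the difference, ASG7 (-0.21) without pair 3. With 1 array left out, the set1 change of STE2 ran from -0.12 to 0.073, AGA2 from -0.24 to 0.091 and AXL1 from -0.063 to 0.29. The jhd2 change of STE2 ran from -0.096 to 0.31, STE6 from -0.21 to 0.094, BAR1 from -0.044 to 0.22, ASG7 from -0.0067 to 0.70, FIG2 from -0.066 to 0.46, RAM2 from -0.21 to 0.042, HMRA1 from 0 to 1.03 and HMRA2 from -0.022 to 0.25. In the overexpression strain AGA2 ran from -0.049 to 1.54 and ASG7 from -0.14 to 0.70. In the difference BAR1 ran from -0.39 to 0.035, MFA1 from -0.11 to 0.27, AGA2 from -0.78 to 0.81 and ASG7 from -0.36 to 0.47.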
